A study of Bos taurus with 6 samples.

Results

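Long unmethylated valleys are stretches of DNA, 3 kb or longer here, in which almost no CpG carries methylation while the surrounding genome is methylated at most CpGs. In mammals such valleys are usually rich in CpGs, occur in many cell types and often lie over genes for developmental transcription factors, which are commonly held silent by Polycomb proteins and the histone mark H3K27me3. They are kept free of methylation by the balance between DNA methyltransferases, which add the methyl group, and TET enzymes, which remove it by oxidation, and their edges are the places where this balance is seen. Butyrate, which rumen microbes release when they ferment feed, inhibits histone deacetylases, so that the valleys of treated cells are of interest as regions where histone marks and DNA methylation meet.

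The valleys were described in whole-genome bisulfite sequencing (WGBS) of rumen epithelial primary cells (REPC), which were cultured from the lining of the first stomach chamber of 1 Holstein bull calf, aged 2 weeks and fed milk replacer only. The control group comprised 3 libraries of these cells, and the butyrate group comprised 3 libraries of the same cells kept for 24 h with 5 mM butyrate in the medium. All 6 libraries therefore share 1 animal, and although the study's methods call the replicates biological, the labels do not say whether these were separate cultures, so p-values measure the spread between these libraries only. In bisulfite sequencing an unmethylated cytosine is read as T, and the methylation level of a region is the number of methylated reads over all reads, summed over its CpG cytosines with each strand counted separately.

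Valleys were chosen by the measured level. The 29 autosomes were divided into 500-bp windows, and a window was low if it had 20 or more reads pooled over all 6 libraries and a pooled level under 15%. A valley was a run of 6 or more adjacent low windows. This gave 1152 valleys of 41879 runs of low windows on the autosomes, and they held 8588 of 79717 low windows. Of 4319174 autosomal windows with a read, only 1475267 had the 20 reads needed to be judged at all. Because the groups were pooled for the choice, the contrast of butyrate with control was not used in it, whereas the low level itself was and is given below as a description. A pooled level under 15% nevertheless leaves little room for regions with a large difference between groups. Positions are those of the cattle assembly UMD3.1.1, counted from 1. The genes and sequences at these positions were not analysed here, because no genome or annotation of this assembly was used, and for the same reason the cell type was not checked against marker genes.

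The libraries were shallow, with 18793438 to 23842285 reads summed over CpGs and a mean of 1.45 to 1.55 reads at a covered autosomal cytosine. A valley therefore held a median of 192 reads in 1 library, with 21 reads in the least covered case. Reads are counted here at each CpG cytosine. A sequenced read that spans several CpGs adds several, so the sequenced reads in a valley can be fewer than these counts. Lane 5 of the sequencer held butyrate replicates 1 and 3, whereas lane 6 held all 3 controls along with butyrate replicate 2, so that lane and treatment were partly confounded. Where the values of several libraries are listed, they stand in the order of replicates 1, 2 and 3.

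The valleys covered 4294000 bp in total. Their median length was 3500 bp and the longest reached 18000 bp, and 62 of the 1152 were 6 kb or longer. The number of runs fell steadily with length across the limit of 3 kb, as 1124 runs had 5 windows and 512 had 6. The runs just inside the limit had a median level of 2.70% and 53.3 CpG cytosines per 500 bp, and those just outside it had 2.62% and 54.5. Of the runs at the limit with most reads, the 2 just inside were chr3:8102001-8105000 with a level of 3.36% and chr22:7279501-7282500 with 3.43%, and the 2 just outside were chr19:29083001-29085500 with 6.67% and chr17:74529501-74532000 with 2.83%. The valleys are thus the long tail of a continuous distribution, with similar levels and densities on both sides of the limit.

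**Figure D1:**
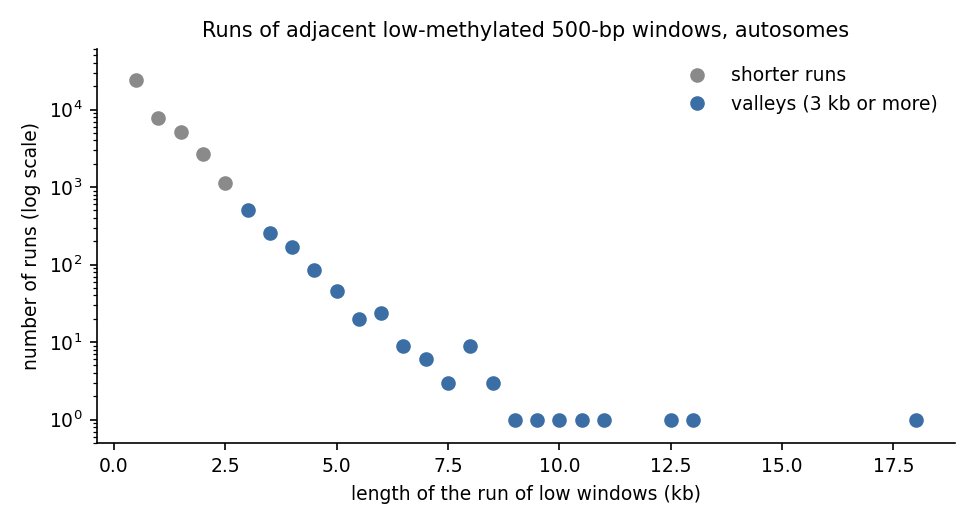
Number of runs of adjacent low windows (vertical axis, log scale) by length of the run in kb (horizontal axis) on the 29 autosomes, with grey points for shorter runs and blue points for the 1152 valleys. Counts fell from 24098 runs of 1 window through 512 runs of 3 kb to single runs at 9 kb and beyond, with no gap at the limit.

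CpG density was not named in the rule. Valleys had a median of 52.8 CpG cytosines seen per 500 bp, with a range of 15.75 to 111 over the 1152 valleys. The median was 5 over all autosomal windows with a read and 13 over those with 20 or more reads. Since a window with more CpGs more easily collects 20 reads, the rule favours CpG-dense DNA, and the latter value is the nearer background. Low runs of 3 to 5 windows had a median of 52.5, close to that of valleys, whereas runs of 1 or 2 windows had a median of 19. Valleys thus resembled the runs of 3 to 5 windows in density and differed from them in extent.

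The pooled level of a valley had a median of 3.005%, with values from 0.809% to 10.8%. Of the 1152 valleys, 229 lay under 2%, 849 at 2% to under 6%, and 74 at 6% or more. At the level of single windows, 6269 of 8588 (73.0%) were under 5%, and 674 (7.85%) were at 10% or more. Taken by itself, each library had 1150 to 1152 of the valleys under 15%, and its highest valley at 14.8% to 19.2%, although the same reads chose the valleys. A valley without any methylated read was found 20 to 50 times per library.

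Valleys differed from each other by more than binomial counting error. The SD of the pooled level over valleys was 1.55 percentage points, whereas binomial error of independent counts alone would give 0.548 points. Valleys that were higher in one library also tended to be higher in another, with Spearman's rho over 1152 valleys of 0.366 to 0.467 for the 6 pairs of libraries within a group and 0.372 to 0.479 for the 9 pairs between groups. These ranges overlapped almost entirely, so that pairs of libraries from different groups resembled each other as much as replicates did.

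The extremes of this range, picked after their values were seen, are given for each library. The valley with the highest pooled level, chr9:50173501-50176500, had 18.9%, 7.69% and 11.04% in control and 11.3%, 9.52% and 10.5% in butyrate. The valley with the lowest, chr19:36510501-36513500, had 0.769%, 1.36% and 1.48% in control and 0%, 0.588% and 0.667% in butyrate. In the former, the control values straddled the butyrate values, and in the latter the groups did not overlap, with lower values in butyrate. The latter held only 130 to 170 reads per library, so that a few methylated reads set its levels. Its difference had an unadjusted p of 0.200 in the logistic regression described below. Of all regions tested there, 4.09% were lower in butyrate without overlap.

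Longer valleys were not the emptier ones. The median pooled level was 2.78% in 771 valleys of 3 to 3.5 kb, 3.40% in 319 valleys of 4 to 5.5 kb, and 4.04% in the 62 valleys of 6 kb or more. CpG density changed little over these classes, with medians of 53.4, 52.1 and 51.6 CpG cytosines per 500 bp. The DNA around the valleys, from 5 to 100 kb on either side and without other valleys, had median levels of 67.0%, 64.2% and 61.0% in the 3 classes. Across the 1152 valleys, Spearman's rho of the valley level with the level of these surroundings was -0.41, with length 0.20, and with CpG density -0.08. Valleys in less methylated surroundings thus tended to hold more methylation. These correlations are descriptions over valleys, which share the same 6 libraries and the same low depth. Neighbouring valleys also share much of their surroundings, and 253 of the 1152 had another within 20 kb, so that they are not independent.

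The edges of valleys were steep. In control, the level was 2.79% ± 0.101 (SD, n = 3 libraries) in the third window inside the edge, 2.90% ± 0.124 in the next one outwards, 5.19% ± 0.0669 in the outermost window of the valley, and 38.7% ± 0.649 in the first 500 bp outside. At about 9.75 kb outside it was 57.5% ± 0.788. In butyrate, the same 5 positions had 2.85% ± 0.0766, 3.001% ± 0.122, 5.27% ± 0.225, 39.3% ± 0.271 and 58.7% ± 0.454. The level did not climb evenly in between, since the second 500 bp outside had 49.4% ± 0.440 in control and the third 44.1% ± 0.589. The level of the outermost and first outside windows is shaped by the rule, since a run ends where a window is no longer low. CpG density fell over the same distance, from 61.7 CpG cytosines per 500 bp in the third window inside to 39.3 in the outermost and 14.6 just outside, and it remained near 13 to 14 over the following 9.5 kb. This fall is in part fixed by the rule too, because a CpG-poor window less often reaches 20 reads. The DNA beside valleys was thus denser in CpGs than the mean of 8.56 over all autosomal windows with a read, and at 38.7% to 57.6% it was less methylated than the autosomes at large, which had 66.8% ± 0.0912 (SD, n = 3) in control outside of valleys.

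**Figure D2:**
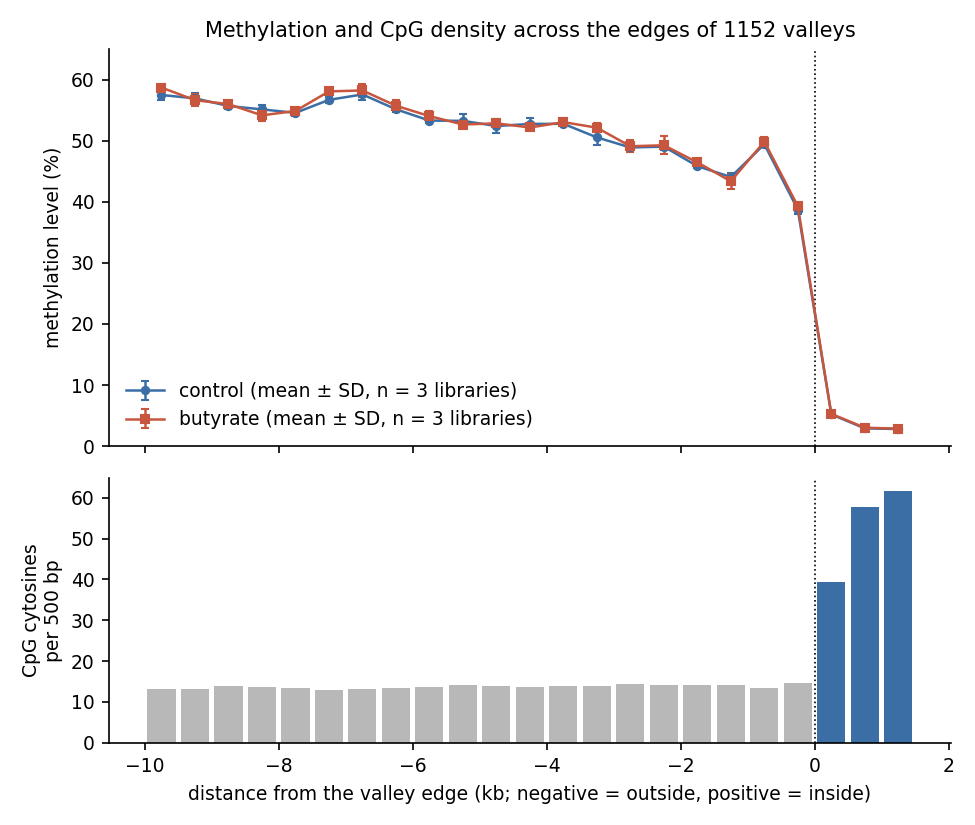
Upper panel: methylation level in % by distance from the valley edge in kb, outside at negative and inside at positive values, as mean ± SD of 3 control (blue) and 3 butyrate libraries (red) over both edges of the 1152 valleys. Lower panel: CpG cytosines seen per 500 bp at the same distances, in grey outside and blue inside. Both groups fell from about 39% just outside to about 5% in the outermost window, and CpG density rose from 14.6 to 39.3 over the same step.

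Many of the ends were set by the minimum of reads in the rule. Of 2304 edges, 1205 (52.3%) were set by a window with under 20 pooled reads, of which 147 had no read and 437 had a level under 15% in the reads that were present. The other edges were set by a window of 15% to under 30% in 433 cases, of 30% to under 60% in 394, and of 60% or more in 272. Both edges were set by a level of 15% or more in 319 valleys. Of the ending windows under 20 reads, those not named above stood at 15% or more in the few reads present. Where the ending window had no read or a level under 15%, the length given here can be a lower limit. A valley can also be split where a single window was too thinly covered. When a single such window or a single higher window was bridged, 1543 runs of 3 kb or more were found, the longest of 20000 bp.

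Most single CpGs within valleys showed no methylated read. Of 462653 CpG cytosines seen in valleys, 90.4% had no methylated read in any library. The median valley had only 3.103 pooled reads per cytosine. At this depth a low level alone leaves most cytosines without a methylated read, so this share says little about uniformity. Only 6077 of the 462653 had 10 or more pooled reads. Among these, 66.6% were at 0%, 29.8% lay above 0% and under 20%, 3.49% at 20% to under 50%, and 9 cytosines in 9 valleys at 50% or more. Of these 9, 5 lay in the outermost windows. Among all 620695 autosomal cytosines of the same depth, 75.3% were at 50% or more. The rule, which keeps each window under 15%, leaves room for few such cytosines in valleys. The 2 most deeply covered valleys held 928 of the 6077 cytosines (15.3%), and in the other valleys 72.2% of 5149 were at 0%.

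The 8 longest valleys carried the same pattern at a larger scale. Their ranks follow the rule without bridging. The valley of 9 kb listed below, for example, belonged to a group of 3 valleys that made up 94.9% of 19500 bp. The longest, chr17:63246001-63264000, spanned 18 kb with 1540 CpG cytosines and 727 to 919 reads per library, and its level was 2.69%, 3.59% and 2.51% in control and 3.44%, 3.53% and 3.88% in butyrate. The groups overlapped, since control replicate 2 lay among the butyrate values. The next, chr2:70976001-70989000, of 13 kb, had 6.06%, 4.33% and 4.02% in control and 9.07%, 3.24% and 4.13% in butyrate. Here the libraries differed by more than binomial counting error (dispersion within groups 6.18, where independent counts give 1), and butyrate replicate 1 lay far above its own group. The valley chr20:70925001-70937500, of 12.5 kb, had 3.91%, 5.15% and 4.19% in control and 4.98%, 5.26% and 5.40% in butyrate. The groups overlapped in it only through control replicate 2.

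The remaining 5 of these were chr10:14638501-14649500 (11 kb), chr2:104971001-104981500 (10.5 kb), chr8:74321001-74331000 (10 kb), chr1:1820501-1830000 (9.5 kb) and chr17:62525001-62534000 (9 kb), with pooled levels between 3.70% and 4.38%. Among them the valley on chromosome 8 was the one without overlap of the groups, with 4.45%, 4.82% and 5.47% in control and 3.34%, 2.89% and 3.60% in butyrate. This difference of -1.67 points did not pass the test over all regions described below (logistic regression, q = 0.315). Its sign was opposite to that of 6 of the other 7, which differed by 0.149 to 0.942 points with higher pooled levels in butyrate, while the valley of 9 kb differed by -0.913 points. The q-values of the 8 ranged from 0.315 to 0.961. Their surroundings differed widely, from 50.1% at 5 to 100 kb around the valley of 9 kb to 70.6% around that of 12.5 kb.

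**Figure D3:**
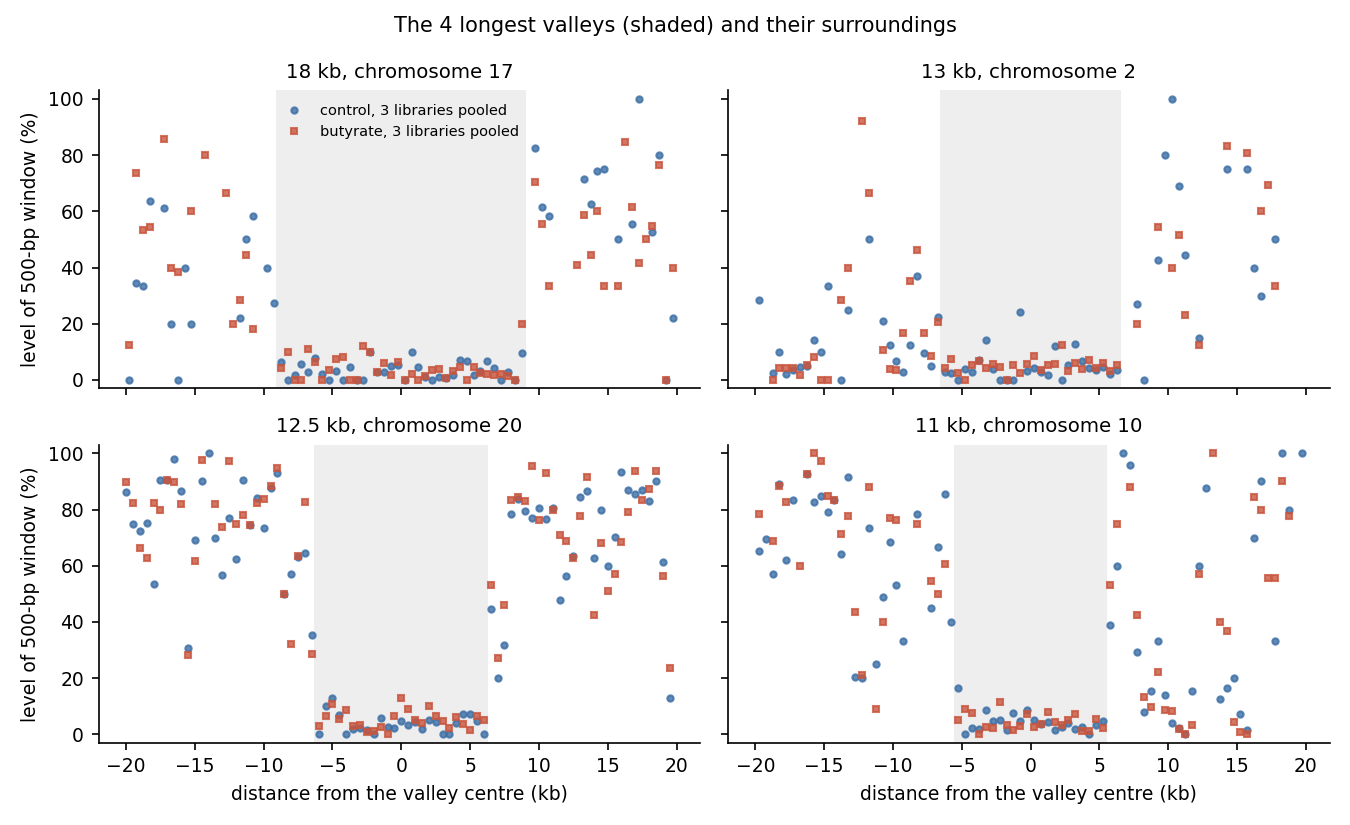
Level in % of each 500-bp window with 5 or more reads in a group (3 libraries pooled, control blue circles, butyrate red squares) by distance in kb from the centre of the 4 longest valleys, which are shaded. Within the shaded parts no window exceeded 24.1% in either group, against levels up to 100% outside, and the points of both groups intermingle.

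Valleys were unevenly spread over the chromosomes. Their number ranged from 9 on chromosome 27 (0.198 per Mb) to 70 on chromosome 19 (1.09 per Mb), against 0.459 per Mb over the autosomes. Chromosomes 18 and 25 followed chromosome 19 with 0.773 and 0.723 per Mb. These 3 were also the chromosomes with most CpG cytosines seen, at 10.8, 13.3 and 11.6 per 500 bp on chromosomes 18, 25 and 19, against 8.14 on chromosome 27. Density did not order all chromosomes, since chromosome 2, with only 6.04, had 0.482 valleys per Mb. Valleys were also close to each other in part: the median distance to the nearest was 433.5 kb, yet 253 (22.0%) had another within 20 kb and 65 within 1 kb. In contrast, 380 (33.0%) had none within 1 Mb. Linking valleys up to 20 kb apart gave 109 groups of 2 or more, 23 of 3 or more and 5 of 4 or more.

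The largest group lay at chr2:20786501-20869500, where 8 valleys made up 46.4% of 83000 bp. The DNA between these valleys was itself poorly methylated, with levels of 13.5%, 12.9% and 12.2% in control and 14.7%, 12.6% and 11.96% in butyrate. The second, chr4:69296001-69343000, held 6 valleys in 47000 bp, with 11.2%, 11.8% and 13.7% between them in control and 12.7%, 13.7% and 13.3% in butyrate. The control and butyrate values overlapped in both groups of valleys. The others were chr1:121866001-121909500 with 5 valleys and 9.86% between them over all libraries, chr19:38507001-38536500 with 4 and 23.9%, and chr5:26137501-26175500 with 4 and 18.8%. All 5 were thus close to continuous stretches of low methylation, in which the spaces between valleys lay far below the 66.8% of the autosomes. As background, cattle carry the 4 clusters of HOX genes, which encode transcription factors that set position along the body axis, on chromosomes 2, 4, 5 and 19. Whether these groups of valleys lie over them was not examined, since no annotation of this assembly was used.

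Another group, chr3:8094001-8116000, stood apart from these in 2 ways. The DNA between its 3 valleys was at 62.8%, and the group held the 2 most deeply covered valleys. The DNA between was deeply covered too, with 19106 pooled reads in 18 windows. Some groups of 2 valleys had higher levels between them, up to 90.4%. The valley chr3:8102001-8105000 had 40.4 pooled reads per CpG cytosine and chr3:8110001-8116000 had 15.7, against a median of 3.103 over the 1152 valleys, and no other valley exceeded 10. With 3617 to 4625 reads per library, the former held the most reads per cytosine of all, and its level was 3.40%, 3.40% and 3.31% in control and 3.17%, 3.41% and 3.48% in butyrate. The groups overlapped there and lay between 3.17% and 3.48%. At the other end, chr18:48834501-48838000 had 1.85 reads per cytosine, with 22 to 183 reads per library, and levels of 1.83%, 1.67% and 2.73% in control and 1.82%, 0% and 0% in butyrate, which this depth could not tell apart (logistic regression, q = 0.633).

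The main comparison asked whether butyrate changed the methylation of the valleys. Over all 1152 valleys, the level was 3.43%, 3.29% and 3.36% in control (mean 3.36% ± 0.0702, SD, n = 3) and 3.53%, 3.37% and 3.42% in butyrate (mean 3.44% ± 0.0824, SD, n = 3), from 217892 to 288203 reads per library. Butyrate replicate 1 was the highest, control replicate 2 the lowest, and the other 4 values interleaved. The difference of 0.0826 points was close to the SD of the butyrate libraries, with values of both groups interleaved (two-sided exact permutation test over the 10 distinct splits of 3 and 3, p = 0.3, where the smallest possible p is 0.1). Butyrate replicate 2 exceeded the control mean by only 0.0116 points when lane 6 was taken alone. With only the cytosines of 3 or more reads in a library, the difference was 0.239 points and the groups did not overlap (exact permutation p = 0.1), whereas with those of 10 or more reads it was 0.0431 points with overlapping groups (exact permutation p = 1). Without control replicate 1 it was 0.117 points and the groups did not overlap (exact permutation p = 0.2), and they overlapped without each of the other 5 libraries (0.0374 to 0.118 points).

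The order of the libraries in valleys followed that in the mitochondrial sequence. The mitochondrial level was 9.48%, 6.95% and 8.48% in control and 11.2%, 8.10% and 8.90% in butyrate. Here too butyrate replicate 1 was the highest and control replicate 2 the lowest, and the order of the 6 libraries was that of the valleys except for butyrate replicate 2 and control replicate 3, which changed places. All mitochondrial levels lay above those of the valleys, so they do not give the share of cytosines left unconverted by bisulfite in valleys, and the part of such cytosines in the valley levels was not tested.

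The groups did not overlap in the rest of the autosomes, which had 66.8% ± 0.0912 (SD, n = 3) in control and 67.4% ± 0.106 in butyrate, a difference of 0.577 points (exact permutation p = 0.1; 0.460 points within lane 6). Valleys thus lay 63.4 points below the rest in control and 63.9 points below it in butyrate, and this gap differed between groups by -0.494 points without overlap (exact permutation p = 0.1, Benjamini-Hochberg adjusted p = 0.4 over 8 such contrasts). With only the cytosines of 3 or more reads, or of 10 or more, the groups overlapped in this contrast (-0.468 and -0.696 points, exact permutation p = 0.2 for both). This contrast depended on the scale. As natural log odds of the level, butyrate lay 0.025 above control in valleys and 0.026 above it in the rest of the autosomes, and the difference of these differences was -0.001 (exact permutation p = 1). The smaller difference of valleys was thus seen on the scale of percentage points only.

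**Figure D4:**
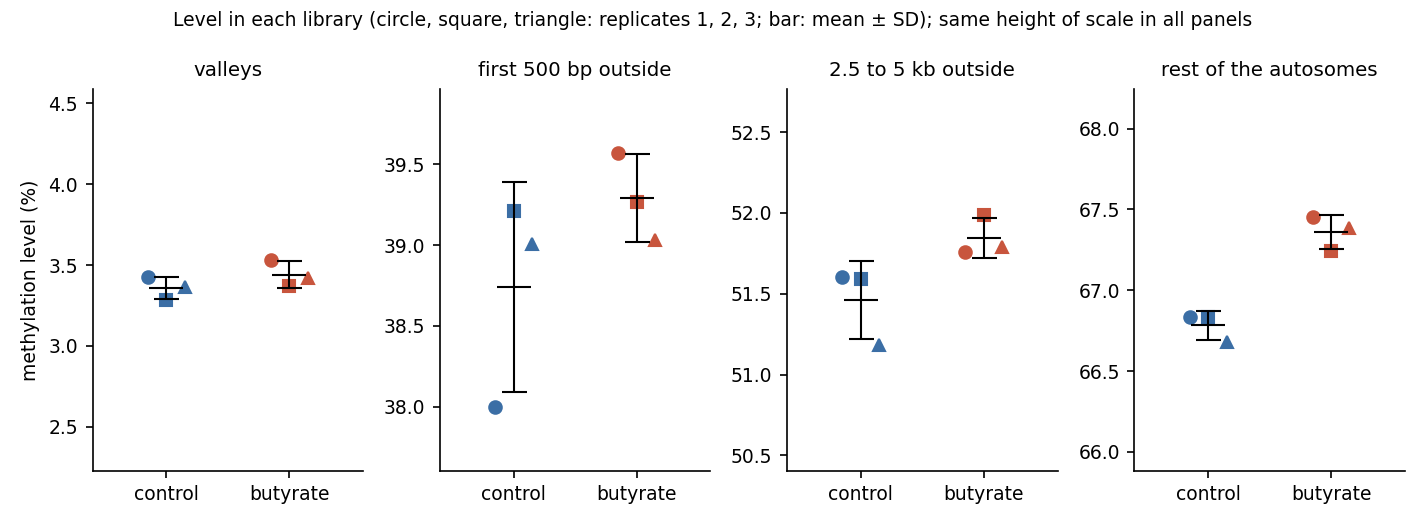
Methylation level in % of each library (circle, square and triangle for replicates 1, 2 and 3) in valleys, in the first 500 bp and at 2.5 to 5 kb outside their edges, and in the rest of the autosomes, with black bars for mean ± SD of 3 libraries; the 4 vertical axes cover the same number of points but do not start at 0. The groups overlap in valleys and in the first 500 bp outside, and they do not overlap in the other panels.

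The levels at and beside the edges were also compared between groups. The edges were set on the reads of both groups pooled, and 1205 of 2304 by a window with under 20 reads. These levels therefore cannot show whether a valley was wider or narrower in 1 of the groups. In the first 500 bp outside, levels were 38.0%, 39.2% and 39.0% in control and 39.6%, 39.3% and 39.0% in butyrate, a difference of 0.551 points with overlapping groups (exact permutation p = 0.2; 0.528 points within lane 6). It was 0.181 points without control replicate 1 and 0.240 points with only the cytosines of 3 or more reads (exact permutation p = 0.9), with overlapping groups in both. The groups did not overlap without control replicate 2 (0.787 points, exact permutation p = 0.1) or without butyrate replicate 3 (0.681 points, exact permutation p = 0.2). At 500 to 2500 bp outside, the difference was 0.142 points (exact permutation p = 0.8; 0.103 points within lane 6), and its sign turned without butyrate replicate 1 (-0.318 points) and with only the cytosines of 3 or more reads (-1.01 points). At 2500 to 5000 bp outside, all butyrate libraries, with 51.8%, 52.0% and 51.8%, lay above the controls, with 51.6%, 51.6% and 51.2% (exact permutation p = 0.1, difference 0.386 points; 0.529 points within lane 6). They overlapped there when only the cytosines of 3 or more reads were used (0.440 points, exact permutation p = 0.6). In the outermost windows of the valleys the difference was 0.0856 points (exact permutation p = 0.6, and 0.153 points within lane 6). In their inner windows it was 0.0730 points (exact permutation p = 0.4, and -0.0148 points within lane 6). None of these was below an adjusted p of 0.643 over the 15 region classes compared, and with 3 libraries a group the test cannot go below 0.1 before adjustment.

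No class of valleys was separated by treatment either. The difference was 0.0569 points in valleys of 3 to 3.5 kb (exact permutation p = 0.5), 0.0712 points in those of 4 to 5.5 kb (p = 0.4) and 0.2501 points in those of 6 kb or more (p = 0.3). The last was the widest, with 4.01%, 3.89% and 3.70% in control and 4.29%, 3.87% and 4.19% in butyrate, and its groups overlapped through butyrate replicate 2. Within lane 6, the differences of the 3 length classes were -0.0139, 0.0634 and 0.00610 points. The difference between the longest and the shortest class changed by 0.193 points between groups (exact permutation p = 0.3), and by 0.0200 points within lane 6. By CpG density, the differences were 0.131, 0.0573 and 0.0736 points in the 3 density classes from low to high, of 384 valleys each, all with overlapping groups. Within lane 6, the same 3 differences were -0.0431, 0.0680 and -0.00418 points. Low runs of 3 to 5 windows differed by 0.0200 points (p = 0.7) and runs of 1 or 2 windows by 0.0127 points (p = 1), and neither treatment difference was separated from that of the valleys (exact permutation p = 0.2 for both contrasts).

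Valley by valley, the treatment difference was examined with a logistic regression on the counts of both kinds of read, over the 1152 valleys and the 3-kb tiles elsewhere on the autosomes that touched no valley and had 10 or more reads in every library. All 1152 valleys passed this minimum among 276704 regions tested. At a Benjamini-Hochberg q under 0.05, 4 valleys (0.347%) were higher in butyrate, against 0.578% of all regions, and 5 (0.434%) were lower, against 0.424% of all regions. With a difference over 10 points as well, 0 valleys were called, against 0.923% of all regions, and a valley at a few percent can reach such a difference only upwards. At an unadjusted p under 0.05 there were 114 valleys (9.90%), against 11.6% of all regions. Valleys held a median of 192 reads per library and tiles 32, so that these shares compare regions of different depth. Among the 36222 regions with 50 or more reads in every library, 13 of 1117 valleys (1.16%) were called, against 4.88% of all regions.

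A window entered a valley only with a pooled level under 15% over both groups, so that regions with a large difference between groups could hardly be members. Between the 5th and the 95th percentile, valleys differed by -2.01 to 2.32 points, and 703 of them by under 1 point, 417 by 1 to under 3 points and 32 by 3 points or more. The pooled level was higher in butyrate in 589 valleys (51.1%), against 53.8% of all regions. All 3 butyrate libraries lay above all 3 controls in 67 valleys (5.82%), against 5.76% of all regions, and below them in 51 (4.43%), against 4.09%. The spread between replicates was larger than that of independent counts, which gives a mean dispersion of 1, with means of 1.31 in valleys and 1.57 in tiles. A read that spans several CpGs is counted at each of them, and the part of this in the excess was not tested.

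**Figure D5:**
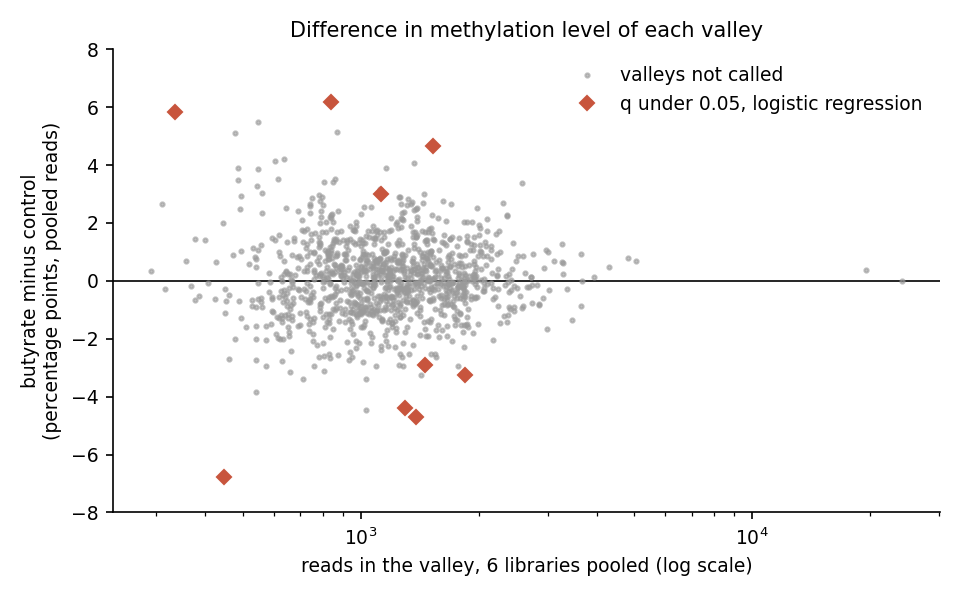
Difference in level (butyrate minus control, in percentage points of pooled reads) of each of the 1152 valleys by its number of reads over the 6 libraries (log scale), with the 9 valleys of q under 0.05 in logistic regression as red diamonds. Most valleys lie within 3 points of 0, the spread narrows with reads, and the called valleys lie between -6.77 and 6.16 points on both sides of 0.

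The valley with the smallest p among those higher in butyrate, chr11:71346501-71350000, had 0.847%, 2.96% and 1.81% in control and 9.63%, 17.5% and 1.45% in butyrate (difference 6.16 points, logistic regression q = 0.00820). Butyrate replicate 3 lay among the controls, and the dispersion within groups was 4.90. The valley chr4:69322501-69326000, which belongs to the group of 6 valleys on chromosome 4 described above, had 5.46%, 3.93% and 2.53% in control and 11.02%, 6.03% and 10% in butyrate (difference 4.65 points, q = 0.0292). It was the one of the 4 in this direction in which the groups did not overlap. Butyrate replicates 1 and 3, which had its highest levels, were the libraries of lane 5. Over the 6 valleys together, levels were 6.20%, 5.70% and 6.27% in control. In butyrate they were 6.33%, 5.98% and 7.74%, so that the groups overlapped. In chr18:53500501-53504000, with 0%, 1.11% and 1.35% in control and 8.15%, 0.917% and 2.11% in butyrate (difference 2.99 points, q = 0.0374), butyrate replicate 1 lay far above the other 5 libraries. The fourth, chr19:9875501-9878500, had no methylated read in the 42 to 60 reads of each control and 9.59%, 7.41% and 0% in butyrate (q = 0.0394).

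Of the valleys lower in butyrate, chr1:23925501-23928500 had the smallest p, with 15.4%, 9.26% and 1.94% in control and 2.00%, 0% and 2.22% in butyrate (difference -6.77 points, logistic regression q = 0.0244). Control replicate 3 lay among the butyrate values, and the reads numbered only 45 to 131 per library. In chr10:3204501-3208500, levels were 3.31%, 4.49% and 3.70% in control and 1.79%, 1.05% and 0% in butyrate (difference -2.92 points, q = 0.0280). In chr13:26936001-26939000, they were 8.52%, 6.33% and 6.36% in control and 0.995%, 3.39% and 3.61% in butyrate (difference -4.39 points, q = 0.0288). These valleys on chromosomes 10 and 13 had no overlap of the groups and a dispersion near that of binomial counting error, 1.01 and 1.08. The other two, chr5:23522501-23526500 (q = 0.0417) and chr17:62366001-62370500 (q = 0.0480), fell by 3.26 and 4.72 points with overlapping groups.

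Of these 9 valleys, 3 had groups that did not overlap (33.3%), against 1832 of all 2770 regions called (66.1%). Logistic regression treats reads as independent, although a read that spans several CpGs is counted at each of them, and none of the 9 was called once the spread between libraries was allowed for. The quasi-binomial F test gave them unadjusted p-values of 0.0204 to 0.175 and called 1 of 276704 regions, which was no valley, with 62 valleys (5.38%) at an unadjusted p under 0.05, against 5.05% of all regions. The limma test on log2 ratios called 0 regions, with a smallest adjusted p among valleys of 0.962 and 41 valleys (3.56%) at an unadjusted p under 0.05, against 4.93% of all regions. With 3 libraries a group, neither of these 2 tests recovered the changes placed in simulated counts over as many regions, so that the lack of calls by them says little. Logistic regression recovered only a part of the changes. The simulated counts were binomial without spread between libraries, so they do not show how often logistic regression calls falsely in the real counts. The number of valleys called by logistic regression was 5 (0.434%) without control replicate 1, 4 (0.347%) without control replicate 3 and 4 (0.347%) without butyrate replicate 2, and 8 to 10 without each of the others, while 0.924% to 1.01% of all regions were called in these 6 fits.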

How the data were processed

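WGBS of REPC from 1 calf was analysed in 3 control and 3 butyrate libraries. Per the study's methods and the submitters' processing notes, the authors trimmed reads with Trim Galore 0.4.1, aligned these to UMD3.1.1 and called methylation with Bismark, of a version not given in the sources used here. Labels give differing read lengths and run types. Duplicate removal and conversion rates could not be established from the sources used here, and duplicates would make reads of a site less independent. For each CpG cytosine, the authors deposited the counts of reads with and without methylation, without normalization, and cytosines with a single read are among those deposited, although the study's methods set a minimum of reads for later steps.

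Files were joined by position on 29 autosomes, reads were summed in 500-bp windows, and valleys were built as described in the report. The labels gave group, replicate and lane. Levels were compared by two-sided exact permutation tests over 10 splits. Features were tested by logistic regression (likelihood-ratio test, 1 degree of freedom, Benjamini-Hochberg over all features), with a quasi-binomial F test and limma with eBayes on log2((methylated + 1)/(unmethylated + 1)) as alternatives. All 3 were tested on simulated binomial counts of the same depth, where only logistic regression recovered changes after adjustment. These counts had no spread between libraries, as logistic regression assumes, so they do not show its false calls in the real counts. Dispersion was Pearson's chi-square within groups over its degrees of freedom. Replicates were compared over valleys by chi-square tests of their counts (chi-square over degrees of freedom 1.19 to 1.41), and all 6 were kept as separate libraries. Replicate numbers gave no sign of pairing the libraries (see the closing section), which at this depth does not exclude it.

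Named valleys were the 8 longest, those with most and fewest reads per cytosine, the 3 with the smallest logistic p in each direction, and 2 runs on either side of the length limit with most reads; the extremes of level, the largest groups and the other called valleys were added after their values were seen. The members, classes and tests were chosen with earlier results of these data known. Alternatives were other limits of level, reads, length and coverage, another window grid, bridging, equal weights for valleys, other tests, lane, the replicate block and leaving out each library. The gene and sequence descriptions that had been planned were not run, since no annotation of UMD3.1.1 was used here. The software was R 4.3.3 (limma 3.58.1) and Python 3.11.15 (pandas 2.3.3, NumPy 2.4.6, SciPy 1.17.1, Matplotlib 3.10.9).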

Additional observations from a re-analysis of the deposited data

How the results depend on the processing

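The difference in valley level was positive under all 19 alternatives, from 0.0116 points within lane 6 to 0.249 points in runs of 10 or more windows. These reuse the same 6 libraries, so their shared sign is no independent support. The groups were apart only with the cytosines of 3 or more reads and without control replicate 1. The contrast of valleys with the rest of the autosomes was negative under each alternative in points and absent as log odds (-0.001, exact permutation p = 1), and the exact permutation test of 3 libraries against 3 cannot go below 0.1. Leaving out each library in turn gave 0.0374 to 0.118 points for the valley level, -0.557 to -0.439 points for the contrast, 0.181 to 0.787 points in the first 500 bp outside, -0.318 to 0.582 points at 500 to 2500 bp, 0.247 to 0.458 points at 2500 to 5000 bp, 4 to 10 valleys called and 1047 to 1070 valleys found. The sign at 500 to 2500 bp turned without butyrate replicate 1 (-0.318 points) and with only cytosines of 3 or more reads (-1.01 points), and the cause was not tested. Against 9 valleys called by logistic regression, 0 were called by the quasi-binomial F test, by limma, and with only cytosines of 10 or more reads, which left 2 valleys to test and called 2.32% of all regions, and 13 of 1117 (1.16%) were called when a region needed 50 reads in each library, against 4.88% of all regions. The same-numbered libraries deviated from their group means with correlations of -0.013, 0.084 and -0.008 over valleys, so that the numbers gave no sign of pairing. With the replicate block, the valley difference was 0.0826 points (exact sign-flip p = 0.25, the smallest possible), and 9 valleys were called (0.781%), against 1.05% of all regions. The number of valleys was 890 and 1346 with limits of 10% and 20%, 1431 and 803 with 10 and 40 reads per window, 1543 with bridging and 1142 on a shifted window grid, and the valley difference in runs of 10 or more windows was 0.249 points. On the shifted grid, 878 of the 1152 valleys (76.2%) overlapped a run, and 1010 to 1041 (87.7% to 90.4%) overlapped one found without 1 library. The alternatives without the 2 deepest valleys, without the outermost windows and on log odds were chosen after seeing the data. Depth limits what can be said of single valleys, where a few methylated reads set the level of a library.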

Other observations

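The X chromosome was not part of the rule, but the same search there found 34 runs of 6 or more low windows, the longest of 5500 bp. This was 0.228 per Mb, against 0.459 per Mb on the autosomes. Only 12.9% of the X windows with a read had the 20 pooled reads needed, against 34.2% on the autosomes, so that the numbers per Mb are not comparable at equal depth. The runs on X had a median of 43.3 CpG cytosines per 500 bp. Their level was 2.87% in control (SD 0.208, n = 3), from values of 3.09%, 2.82% and 2.68%, and 3.12% in butyrate (SD 0.378, n = 3), from values of 3.33%, 3.33% and 2.68%. The groups overlapped. A male calf carries a single X, and the part of this in the number of runs was not tested.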
